A study of Mus musculus with 2 samples.

Results

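This set holds the EP300 peaks of newborn mouse stomach whose summits lay at promoters that face one way: 2309 of the 7737 peaks in the optimal set, the list deposited after the replicates had been compared by irreproducible discovery rate (IDR). A peak was a member where its summit was 1 kb or less from the start of a coding transcript in GENCODE release M21 and every coding start within 1 kb was on the same strand. The 300 peaks with the highest signal value, a strength given by the authors' peak caller, were left out. Before that step 2511 peaks met the rule, and 202 of them were among the 300 strongest. The strongest member, at Nprl3, had a signal of 81.4, and the weakest such peak left out, at Ptpn4, one of 81.6. The farthest member summit stood 992 bp from its start, at Edn1, and the nearest peak beyond the limit stood 1002 bp away, at Phf21a.

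Chromatin bound by EP300 was precipitated with an antibody and sequenced from stomach tissue of B6NCrl mice on postnatal day 0, with no treatment or altered allele named in the labels and the sex not collected. There were 2 libraries, replicates 1 and 2, which form 1 group, so the study has no treated or mutant arm and the comparisons here are between classes of peaks. The summits compared with the members were 387 at bidirectional promoters, where coding starts within 1 kb lay on both strands, and 3424 distal summits over 10 kb from any coding start, both again without the 300 strongest. The tissue is whole stomach, so a peak may come from muscle, epithelium or any other cell type in it.

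EP300 is a histone acetyltransferase that carries no sequence-specific DNA-binding domain of its own and is brought to promoters and enhancers by transcription factors and other proteins bound there. Many mammalian promoters lie in CpG islands, stretches of high GC content in which CpG dinucleotides have not been lost, and such promoters often belong to genes used in every cell. CpG-island promoters hold recurrent short motifs of factors such as SP1, the ETS family, NF-Y, NRF1, YY1 and E2F.

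The 8 motifs with the highest ratio of summit to flank frequency are shown in their setting, each in a strong member where the surrounding bases overlap no untranslated exon. Each line gives 61 bp of the mouse genome (mm10, sequence from the RefSeq assembly GRCm38.p6) on the strand of the gene, 5′ to 3′, with the motif in capitals. The ZBTB33 palindrome stood 129.5 bp upstream of the start of Bclaf1, a regulator of transcription and RNA processing, at chr10:20312310-20312370 on the plus strand.
Bclaf1, ZBTB33: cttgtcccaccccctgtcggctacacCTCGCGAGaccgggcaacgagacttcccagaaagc
The ETS site stood 192 bp upstream of Per1, a core clock gene, at chr11:69094995-69095055 on the plus strand.
Per1, ETS: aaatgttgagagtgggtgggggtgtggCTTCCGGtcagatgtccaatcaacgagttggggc
The CTCF site stood 226.5 bp upstream of Kif1b, a kinesin motor, at chr4:149307889-149307949 on the minus strand.
Kif1b, CTCF: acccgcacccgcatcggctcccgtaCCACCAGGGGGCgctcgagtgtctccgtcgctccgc
The NRF1 site stood 197.5 bp upstream of Dohh, an enzyme of hypusine synthesis, at chr10:81384201-81384261 on the plus strand.
Dohh, NRF1: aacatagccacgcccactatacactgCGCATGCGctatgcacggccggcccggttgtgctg
The KLF and SP site stood 87.5 bp upstream of Nktr, a cyclophilin-related protein, at chr9:121719059-121719119 on the plus strand.
Nktr, KLF and SP: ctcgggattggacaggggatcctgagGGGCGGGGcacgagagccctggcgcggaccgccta
The EGR site stood 109 bp downstream of the start of Parl, a mitochondrial rhomboid protease, at chr16:20302248-20302308 on the minus strand.
Parl, EGR: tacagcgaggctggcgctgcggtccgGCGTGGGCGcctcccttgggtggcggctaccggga
The E2F site stood 139 bp upstream of Stam, an endosomal sorting adaptor, at chr2:14073929-14073989 on the plus strand.
Stam, E2F: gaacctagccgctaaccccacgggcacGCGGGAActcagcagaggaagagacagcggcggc
The USF E-box stood 107.5 bp upstream of Mob1b, an adaptor of the Hippo pathway, at chr5:88720718-88720778 on the plus strand.
Mob1b, USF E-box: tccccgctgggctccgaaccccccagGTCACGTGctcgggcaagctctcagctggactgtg

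Because the ZBTB33 palindrome stood out among the motifs, the next 4 members that carry it under the same conditions are also shown. The site was 40.5 bp upstream of Smndc1, a splicing factor, at chr19:53390589-53390649 on the minus strand, and 75.5 bp upstream of Usp47, a deubiquitinase, at chr7:112023399-112023459 on the plus strand. It was 48.5 bp upstream of Atf7, a transcription factor that binds cyclic AMP response elements, at chr15:102625458-102625518 on the minus strand, and 212.5 bp upstream of Vdac3, a channel of the outer mitochondrial membrane, at chr8:22593996-22594056 on the minus strand.
Smndc1: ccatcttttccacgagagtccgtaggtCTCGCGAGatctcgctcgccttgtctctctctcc
Usp47: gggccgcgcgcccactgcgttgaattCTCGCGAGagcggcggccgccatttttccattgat
Atf7: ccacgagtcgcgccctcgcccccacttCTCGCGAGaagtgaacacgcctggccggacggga
Vdac3: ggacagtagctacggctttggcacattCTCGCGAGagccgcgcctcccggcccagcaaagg

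The members were of moderate strength. Their signal had a median of 30.3 (quartiles 22.3 and 40.1) in the optimal set, whose values come from the pooled reads, and ranged from 7.76 to 81.4. A replicate was matched to a member through the nearest of its summits inside the member's interval, so neighbouring members can share a replicate's value. Replicate 1 had a summit inside 2141 members, replicate 2 inside 2143, and both did inside 1993 (86.3%, exact 95% interval 84.8 to 87.7). The replicate lists are long, with 300000 peaks, so a match can be a weak entry. By signal, the matched peaks had a median rank of 4675 in replicate 1 and 4806 in replicate 2. The 95th percentiles of rank were 105987 and 137339. The replicate signals had medians of 17.0 and 15.8. Across the 1993 members with both values, which come from separate libraries at the same pooled peaks, Pearson's r of the log2 signals was 0.24 and Spearman's rho 0.27, and the SD of the log2 difference was 0.92. Within this set, the order of members by strength differed widely between the libraries. The set was cut on the pooled signal of the same libraries, and the part of that cut in the correlation was not tested. Strength is used here to describe members and to choose examples. Of the members, 1400 (60.6%) were also in the stricter conservative set, beside 61.3% of all optimal peaks.

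**Figure D1:**
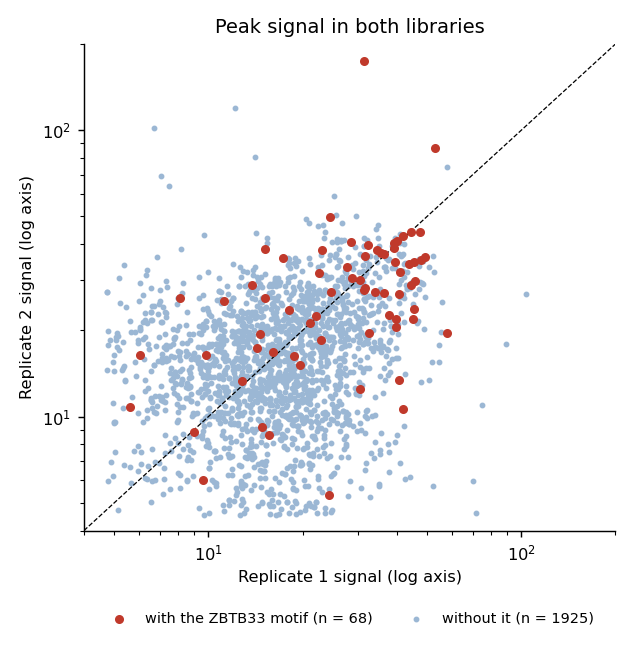
Signal of each member in replicate 1 (horizontal, log axis) and replicate 2 (vertical, log axis), 1993 members with a summit of both libraries inside, with the line of equal values dashed. The members with a ZBTB33 palindrome within 100 bp of the summit (68 of them, red) lie mostly toward the upper right, while the cloud of other members is broad.

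EP300 summits lay upstream of the coding start more often than downstream. Of the 2309 members, 1437 (62.2%, exact 95% interval 60.2 to 64.2) had the summit upstream of the nearest coding start, and 872 had it at the start or downstream (two-sided exact binomial test against equal shares, p = 4.07e-32). The p-values in this account count peaks, which come from 1 group of 2 libraries and are not replicates, so they cover counting of peaks only. The median summit was 70 bp upstream (position -70, quartiles -249 and 79). The replicates' own summits lay upstream at 63.9% in replicate 1 and 64.6% in replicate 2 of the 1993 members, and on the same side in both for 1728 (86.7%). The summits of the libraries differed by a median of 56 bp, and 430 members had their summit within 50 bp of the start, where the side can turn on such a difference. Among summits over 100 bp from the start, an alternative added after seeing the data, the upstream share was 66.6%.

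**Figure D2:**
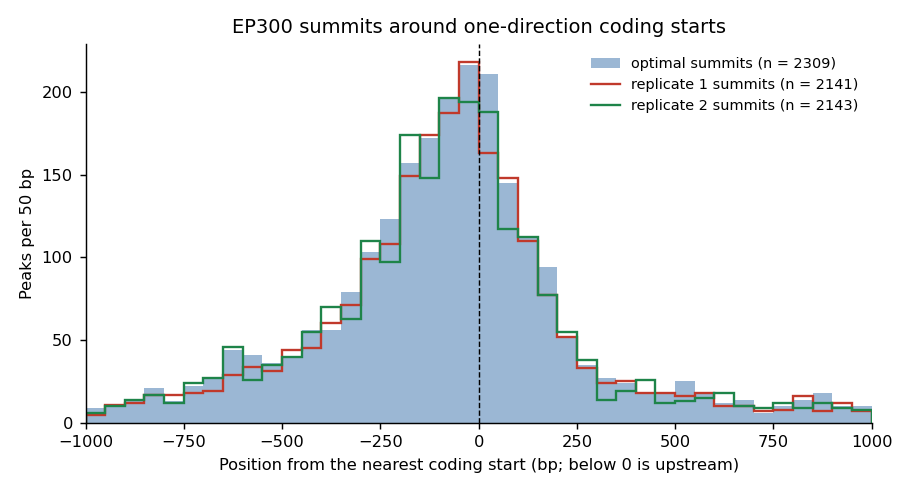
Number of summits per 50 bp against the position from the nearest coding start, in bp, for the 2309 members (filled) and the nearest summits of replicate 1 (red line, n = 2141) and replicate 2 (green line, n = 2143). All 3 are highest beside the start and fall away more slowly on the upstream side.

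The interval from 100 bp to 1 bp upstream held the most summits, 413 (17.9%), followed by 356 in the first 100 bp downstream and 329 from 200 to 101 bp upstream. Upstream summits were a median of 194 bp from the start, and downstream summits 133 bp. The median signal was 30.9 upstream and 28.8 downstream, with 17.1 and 16.9 in replicate 1 and 16.7 and 14.3 in replicate 2. By annotation, 1051 summits (45.5%) lay outside coding transcripts, 573 (24.8%) in untranslated exons, 571 (24.7%) in introns and 114 (4.94%) in coding exons. Of the upstream summits, 261 (18.2%) lay in introns, within a longer transcript of the same or another gene. The 872 downstream summits lay mainly in untranslated exons (455, 52.2%) and introns (310, 35.6%).

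Among the strongest upstream members, Bclaf1 had a signal of 81.3 at chr10:20312003-20312562, 186 bp upstream, with 41.8 in replicate 1 and 42.9 in replicate 2. Thap1, a zinc finger transcription factor, had 81.3 at chr8:26157925-26158484, 28 bp upstream, with 39.9 and 41 in replicates 1 and 2. Nktr had 80.6, with 44.5 and 44.1, and Smndc1 80.5, with 47.5 and 44.2, so these 4 had close values in both libraries. Per1 had 80.4, with 54.5 in replicate 1 and 17.8 in replicate 2, and Usp19, a deubiquitinase, had 80.3, with 25.5 and 50.5. These last 2 show how far a strong member could differ between the libraries. Mob1b had 80.1 (45.5 and 34.6). All 7 had CpG-rich summit windows, as defined in the account of CpG content, and Bclaf1, Thap1, Nktr, Smndc1 and Mob1b held the ZBTB33 palindrome.

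The strongest downstream members were close to their starts. Nprl3, a subunit of the GATOR1 complex that restrains mTORC1, had 81.4 at chr11:32267334-32267893, with its summit 1 bp downstream and 43.8 and 34.2 in replicates 1 and 2. Zfp414, a zinc finger gene, had 79.7 with the summit 2 bp downstream (39.1 and 40.3), and Rpl27a, a protein of the large ribosomal subunit, 79.1 with the summit 3 bp downstream (49.1 and 36.0). In these 3 the summit practically coincided with the start, so their side is the least certain. Wdr6, a cofactor of tRNA methylation, had 78.5 at 78 bp (39.1 and 38.8), and Troap, a cytoskeleton-associated protein, 78.4 at 166 bp (39.4 and 34.8). Mysm1, a histone H2A deubiquitinase, had 77.9 at 18 bp (45.8 and 29.8), and Ddx17, an RNA helicase, 77.7 at 73 bp (52.6 and 32.1). All 7 were CpG-rich, and 6 held the ZBTB33 palindrome, the exception being Ddx17.

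Many genes had more than 1 member summit, at 1 or several of their starts. The members were nearest to 1668 genes, of which 1132 had 1 summit, 445 had 2, 78 had 3, 12 had 4 and 1 had 5. In 308 of the 445 genes with 2, both were nearest to the same start, and of these 92 had 1 on each side of it, 153 had both upstream and 63 both downstream. In the other 137 genes the summits were nearest to different starts. Neighbouring summits of a gene were a median of 236 bp apart (quartiles 206 and 349), and 1145 members (49.6%) overlapped another optimal peak, so that the members formed 1749 separate regions. Prpsap1, which encodes a regulator of phosphoribosyl pyrophosphate synthesis, had 5 summits nearest to 3 starts, between 709 bp upstream and 270 bp downstream of the one nearest to each, the strongest at 42.7. Cic, a transcriptional repressor, had 4 over 2 starts, all upstream, the strongest at 74.7. Arrdc3, an arrestin-domain protein, Ubb, a polyubiquitin gene, and Gnb2, a G protein subunit, also had 4 each over several starts, the strongest at 65.7, 43.8 and 42.3.

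CpG content set the members apart from distal summits and divided them among themselves. A 500 bp window centred on the summit was called CpG-rich with a GC content of at least 55% and a CpG observed/expected ratio of at least 0.6. It was CpG-rich for 1337 of 2309 members (57.9%, 55.9 to 59.9), for 275 of 387 bidirectional summits (71.1%) and for 79 of 3424 distal summits (2.31%). Members were CpG-rich more often than distal summits (log2 odds ratio 5.85, two-sided Fisher's exact test, with a p below the smallest number the software stores) and less often than bidirectional ones (-0.83, adjusted p = 7.65e-07, same exact test). The median GC content was 59.2% at members, 59.8% at bidirectional and 46.4% at distal summits, and the median CpG ratio was 0.746, 0.825 and 0.227.

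Upstream summits were less often CpG-rich than downstream ones, 728 of 1437 (50.7%) against 609 of 872 (69.8%), with log2 odds of -1.17 between them (adjusted p = 1.15e-19, Fisher's exact test, two-sided). The share was highest from 100 to 199 bp downstream, at 83.5%, and was 72.4% in the 100 bp upstream of the start and 17.1% at positions -900 to -801. The same windows at all one-direction coding starts, 1 a gene, had the same shape at a lower level: 45.8%, 40.4% and 2.29% were CpG-rich at those positions. Members were above all starts in every 100 bp bin except the last, from 900 to 999 bp downstream, with 5.0% of 20 members against 7.58%. Set against its mirror image at the same distance on the other side of the start, an upstream summit was CpG-rich less often, in 41.9% against 65.7% of 1024 members over 100 bp away (two-sided exact McNemar test, p = 3.72e-39). A downstream summit was CpG-rich more often than its mirror image, in 64.4% against 33.5% of 514 (same exact test, p = 2.14e-30). Within these promoters the richer side was thus the transcribed side, whether or not the summit was there.

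**Figure D3:**
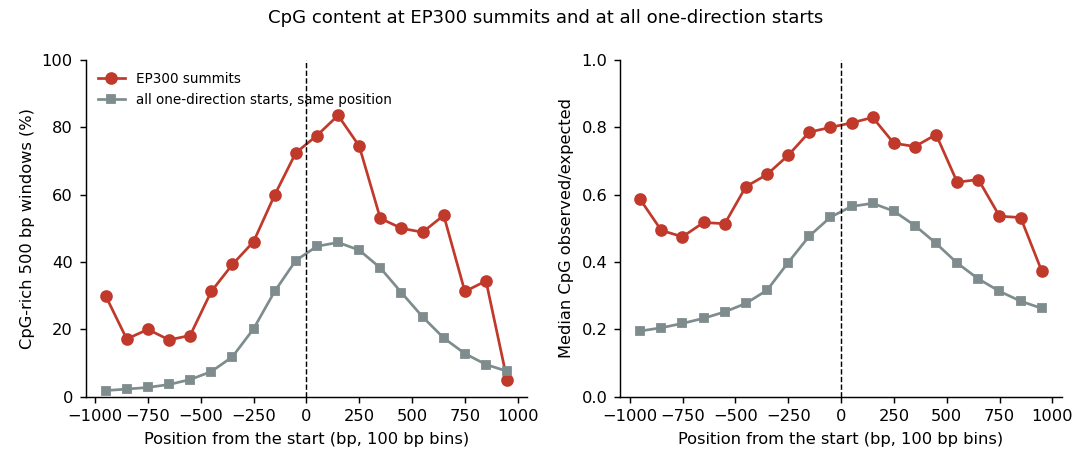
Share of CpG-rich 500 bp windows (left, %) and median CpG observed/expected ratio (right) in 100 bp bins of position from the coding start, for member summits (red) and for the same positions at all one-direction starts (grey). Both curves peak just downstream of the start, and the red curve lies above the grey one in every bin of the left panel but the last.

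The starts themselves showed the same difference. Of the 1867 distinct starts nearest to a member, 1426 (76.4%) were CpG-rich, against 7072 (39.8%) of 17773 starts of genes without a promoter peak (log2 odds ratio 2.29, two-sided Fisher's exact test, p = 2.13e-205). Counted by genes, 14.7% of those with a CpG-rich one-direction start had a member, and 3.63% of those with another start. The TATA box, TATAAA between 40 and 20 bp upstream, was at the nearest start of 38 members (1.65%, 1.17 to 2.25). It was at 531 of 19603 one-direction starts (2.71%, 2.49 to 2.95), counted 1 a gene, while members were counted by peak. Of those 531 starts, 74 (13.9%) were CpG-rich, so these shares compare starts of unlike CpG content. Among members the share was 1.80% where the summit window was CpG-rich and 1.44% elsewhere. CpG-rich members had a median signal of 32.1, the others 28.1, with 18.2 and 15.4 in replicate 1 and 17.0 and 14.5 in replicate 2.

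A non-coding transcript started on the opposite strand within 1 kb of 395 members (17.1%), so the strand rule, which reads coding starts, kept some promoters with a divergent non-coding transcript. This was the case at 20.4% of CpG-rich and 12.6% of other members (log2 odds ratio 0.83, two-sided Fisher's exact test, adjusted p = 1.17e-06), and at 17.7% of upstream and 16.1% of downstream ones (adjusted p = 0.305). The summit base lay in a repeat in 5.61% of CpG-rich and 13.9% of other members (-1.44, adjusted p = 5.29e-11, same exact test).

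The 972 members that were not CpG-rich included strong peaks. Sp1, which encodes the factor that binds GC boxes, had 79.2 at 272 bp upstream (34.8 in replicate 1 and 42.2 in replicate 2), with a GC content of 53.6%, just under the limit. Zfp566, a zinc finger gene, had 78.4 at 35 bp upstream (25.5 and 36.8) and also missed the limit narrowly, with 54.8%. Slc10a6, a transporter of sulfated steroids, had 78.4 at 197 bp upstream (41.8 and 36.9) with a GC content of 48.0% and a CpG ratio of 0.314. That window was far from the CpG-rich definition on both measures. H3f3b, which encodes the replacement histone H3.3, had 78.4 at 177 bp upstream (42.8 and 28.9). Hexim1, an inhibitor of the elongation kinase P-TEFb, had 74.8 at 554 bp upstream (39.6 and 42.0), with a GC content of 41.6%. The sixth, Cic, had 74.7 at 275 bp upstream (43.1 and 28.0).

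Motifs were counted on both strands within 100 bp of the summit and in a window of the same length centred 1000 bp away. Of 36 motifs, 16 were more frequent at member summits than in their flanks and 5 less frequent (two-sided exact McNemar test, Benjamini-Hochberg adjusted p under 0.05). The summit windows had a mean GC content of 58.4% and the flanks 48.4%, and its part in the motif counts was not tested in this comparison. At least 1 of the 16 was present in 1200 members, 3 or more were in 107, and 1109 had none. A match describes the letters and does not show that the factor is bound.

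The ZBTB33 palindrome, CTCGCGAG, had the highest ratio. ZBTB33, also called Kaiso, is a zinc finger protein that binds methylated CpG and related sequences, and the palindrome is also recognised by other proteins. It was in 69 members (2.99%) and in 0.130% of flanks, a ratio of 19.9 (exact McNemar test, adjusted p = 3.16e-16), beside 0.740% of all one-direction starts and 0.0292% of distal summits. The sites sat close to the summit, 82.6% of them within 50 bp, with a median distance of 22.5 bp. The members with the palindrome had a median signal of 57.5, against 30.04 without it, and the same order held in replicate 1 (31.4 against 16.8) and in replicate 2 (27.2 against 15.7). The summits of the libraries were a median of 23.5 bp apart in the 68 members with the palindrome that both libraries matched, and 58 bp apart in the other 1925. The palindrome was in 10.2% of the 462 strongest members and 1.52% of the 462 weakest, and in 94 of the 202 stronger one-direction promoter peaks that were left out (46.5%). These relations to signal are descriptions, since the signal also set the limit of the set.

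In windows centred on the start, 68 of the 1867 starts nearest to a member held the palindrome (3.64%). Of 17773 starts of genes without a promoter peak, 46 held it (0.259%). This gave log2 odds of 3.86 between them (adjusted p = 4.42e-39, Fisher's exact test, two-sided). Many summits lay close to the start, so start windows overlap summit windows and the comparison is not separate from the choice of summit. Among CpG-rich starts alone the shares were 4.42% of 1426 and 0.523% of 7072 (log2 odds ratio 3.13, same exact test, adjusted p = 9.16e-24). Against the mirror image of the summit, the palindrome was in 1.89% of summits and 0.845% of mirror windows of 1538 members (two-sided exact McNemar test, adjusted p = 0.117).

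The ETS motif, CCGGAAG, recognised by a large family of activators, was in 277 members (12%), 1.99% of flanks and 1.61% of distal summits, a ratio to flanks of 5.97 (exact McNemar test, adjusted p = 2.03e-41). In windows centred on the start, it was at 8.26% of all one-direction starts. Starts nearest to a member held it at 17.8%, and those of genes without a promoter peak at 7.29%. Among CpG-rich starts it was at 20.6% of those nearest to a member and 13.5% of those without a promoter peak (log2 odds ratio 0.74, two-sided Fisher's exact test, adjusted p = 4.43e-10). The KLF and SP motif, CCCCGCCC, the GC box, was in 299 members (12.9%) and 3.51% of flanks, while all one-direction starts held it at 18.8% (ratio to flanks 3.67, exact McNemar test, adjusted p = 4.56e-31). Among CpG-rich starts alone the direction was reversed: 28.6% of those nearest to a member held it and 36.2% of those without a peak (log2 odds ratio -0.50, Fisher's exact test, adjusted p = 3.49e-07). Among other starts its share was 10.7% near members and 6.01% without a peak (0.91, same exact test, adjusted p = 0.00297), so the direction depended on the class of start.

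**Figure D4:**
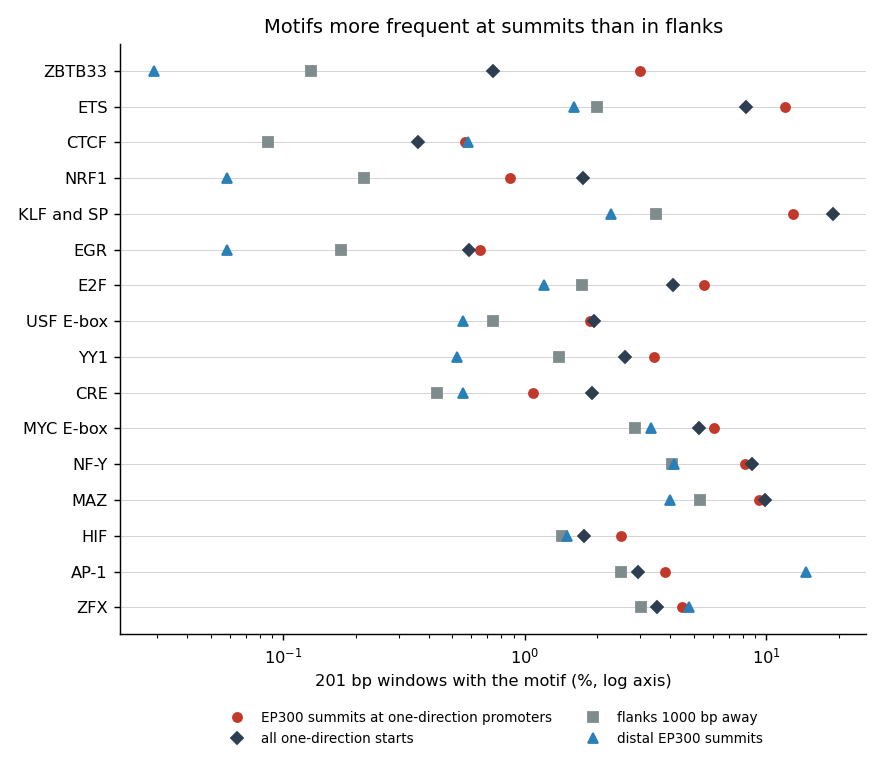
Share of windows of 100 bp to each side holding each of the 16 motifs that were more frequent at member summits than in flanks (%, log axis), ordered by the ratio of summit to flank, for member summits (red circles), all one-direction starts (dark diamonds), flanks (grey squares) and distal EP300 summits (blue triangles). ZBTB33 and ETS are at the top with 2.99% and 12% of member summits, and AP-1 is the one motif whose share is far higher at distal summits, 14.6% against 3.81%. The diamonds are windows centred on the start, so they are not placed like the summit windows.

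The other promoter motifs were less concentrated. E2F, TTCCCGC, tied to cell-cycle genes, was in 127 members (5.50%, ratio to flanks 3.15), and YY1, AAGATGGC, in 79 (3.42%, ratio 2.45). YY1 sites had a median position 16.5 bp downstream of the start, and 40.5% of them lay upstream. NF-Y, CCAATCA or CCAATGA, was in 188 members (8.14%, ratio 1.99), and 84.6% of its sites lay upstream, with a median position of -70.5 bp. The USF E-box, CACGTGAC, was in 43 members (ratio 2.49), the MYC E-box, CACGTG, which every USF site contains, in 141 (2.13), MAZ, CCCCTCCC, in 216 (1.75) and the HIF motif, GACGTGC or TACGTGC, in 58 (1.75). Rarer ones were CTCF, the insulator protein, in 13 members, NRF1, CGCATGCG, in 20, the cyclic AMP response element, TGACGTCA, in 25 and EGR, GCGTGGGCG, in 15. NRF1 was at 0.866% of member summits. In windows centred on the start, it was at 1.82% of starts nearest to a member and 1.73% of all one-direction starts. AP-1, TGACTCA, in 88 members (ratio 1.51), and ZFX, AGGCCTNG, in 103 (1.47), passed the test in 6 of 13 alternatives each, and EGR likewise in 6. With replicate 1 alone, CTCF, EGR, HIF, AP-1, ZFX and RFX did not pass, and with replicate 2 alone ZFX did not.

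The 5 motifs less frequent at summits than in flanks were homeobox, TAATTA (2.38% against 4.85%), RUNX, TGTGGTT (2.34% against 4.55%), GATA factors, AGATAAG or TGATAAG (2.30% against 4.07%), the glucocorticoid receptor element, ACANNNTGT (3.29% against 5.02%), and RFX, GTTGCCAT (0.346% against 0.866%). RFX passed in 3 of 13 alternatives and changed direction in 2.

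Compared with distal EP300 summits, 13 motifs were more frequent at members and 16 less frequent (two-sided Fisher's exact test, adjusted p under 0.05). The motif windows had a mean GC content of 58.4% at members and 46.8% at distal summits, and the part of GC content in these differences was not tested. AP-1, the motif of FOS and JUN, was in 3.81% of members and 14.6% of distal summits (log2 odds ratio -2.10, Fisher's exact test, adjusted p = 2.93e-43). GRHL, AACCGGTT or AACCTGTT, the motif of the grainyhead-like epithelial factors, was in 0.953% and 3.71% (-1.97, exact test, adjusted p = 3.77e-11), and TEAD, TGGAATG or AGGAATG, read by the partners of YAP, in 5.98% and 13.1% (-1.24, adjusted p = 1.86e-18). Also lower at members were FOX, TGTTTAC (2.86% against 6.60%), GATA factors (2.30% against 4.96%) and the SRF CArG box (1.26% against 2.37%). Higher at members, beside ZBTB33 and ETS, were YY1 (3.42% against 0.526%), KLF and SP (12.9% against 2.28%) and E2F (5.50% against 1.20%).

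Against bidirectional promoter summits, no motif passed Fisher's exact test after adjustment, and 4 had an unadjusted p under 0.05: NF-Y (8.14% at members against 13.2%, adjusted p = 0.0698), ETS (12% against 16%), the E-box CAGCTG (9.87% against 5.94%) and MAZ (9.35% against 5.43%). Between upstream and downstream members, 1 motif differed, NF-Y, in 9.95% of upstream and 5.16% of downstream summits (log2 odds ratio 1.01, two-sided Fisher's exact test, adjusted p = 0.00144). That call was lost in 3 of 12 alternatives: among the stronger part of the members, with 1 peak for each run of overlapping peaks, and with principal starts only.

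CpG-rich and other members differed in 17 motifs, 7 more and 10 less frequent in the CpG-rich ones. KLF and SP was in 18.7% of CpG-rich and 5.04% of other members, ETS in 16.2% and 6.28%, E2F in 7.85% and 2.26%, and ZBTB33 in 4.79% and 0.514%. AP-1 was in 1.94% of CpG-rich and 6.38% of other members (log2 odds ratio -1.76, two-sided Fisher's exact test, adjusted p = 3.54e-07), homeobox in 1.20% and 4.01% and GATA factors in 1.27% and 3.70%. The members outside CpG-rich sequence held AP-1, homeobox and GATA letters more often, in the direction seen for distal summits. These classes were defined by the base composition of windows that hold the motif windows. The definition itself thus bears on motifs rich in GC or AT, and its part in these differences was not tested.

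The genes with a member were counted in 28 lists beside all protein-coding genes, of which 1684 of 21888 (7.69%) had a coding start within 1 kb of a member summit. Both counts include genes whose start has an opposite coding start within 1 kb, whose promoter peaks the rule mostly leaves out. Over the 19603 genes without an opposite start, 1649 (8.41%) had a member. The immediate early genes, which are transcribed soon after a stimulus, had the highest share, 25 of 44 (56.8%, exact 95% interval 41.03 to 71.7), with 43 peaks. Their starts were CpG-rich in 81.8%, and 14.7% of all genes with a CpG-rich one-direction start had a member. With replicate 1 alone the count was 25 and with replicate 2 alone 21.

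Among the immediate early genes, Per1 and Nfkbia, which encodes the inhibitor of NF-κB, were the strongest, with Nfkbia at 65.2 and 29 bp downstream (29.0 in replicate 1 and 32.6 in replicate 2). Jund, a subunit of AP-1, had 48.8 at 19 bp downstream (22.5 and 27.3), and a further summit 351 bp upstream. Members were also found at Fos, Fosl2, Jun and Junb, which encode other AP-1 subunits, at Btg1 and Btg2, antiproliferative genes, at Zfp36, Zfp36l1 and Zfp36l2, which encode proteins that promote mRNA decay, and at Ccn1 and Ccn2, matricellular genes. Fosl2 had 4 summits, and Jun, Ccn1, Per1 and Zfp36 had 3 each.

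Smooth muscle genes followed, with 16 of 33 (48.5%, 30.8 to 66.5) and 22 peaks, of which 10 (45.5%) were CpG-rich. Acta2, smooth muscle actin, had 51.1 at 249 bp downstream (18.8 in replicate 1 and 34.5 in replicate 2), and Actg2, the enteric smooth muscle actin, 49.9 at 21 bp upstream (21.4 and 26.6). Myl9, a myosin light chain, had 49.0 at 289 bp upstream (23.1 and 23.8). None of these 3 windows was CpG-rich, with CpG ratios of 0.339, 0.290 and 0.376, against a median of 0.746 over all members. Further members lay at Tagln, Tpm2, Tpm4, Smtn, Cnn2, Itgb1, Myl6, Pdlim5, Pdlim7, Ppp1r12a, Vcl, Actn1 and Srf, the factor that reads the CArG box. The count was 12 with replicate 1 alone and 13 with replicate 2 alone, and 9 in the conservative set.

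A CArG box lay within 100 bp of the summit in 2 of the 22 smooth muscle peaks, at Actg2 and at Tagln, and both are shown as 30 bp on the gene's strand with the box in capitals. The first is at chr6:83536277-83536306, 26.5 bp upstream of the start, and the second at chr9:45936028-45936057, 15.5 bp downstream of its nearest start, both on the minus strand. The Tagln peak had a signal of 26.9, with 29.5 in replicate 1 and no summit of replicate 2 inside.
Actg2: cgtcagctggCCTTTTTAGGgactctgttt
Tagln: gtgtctttccCCAAATATGGagcctgtgtg
Over all members the CArG box was in 1.26%, beside 1.39% of flanks.

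Genes of the protein synthesis and RNA machinery made up the next lists. Cytosolic ribosomal protein genes had members in 28 of 83 (33.7%, 23.7 to 44.9), and another 20 had only promoter peaks of other classes or among the 300 strongest. Their summits lay mostly downstream: 13 of 39 (33.3%) were upstream, against 62.2% of all members, and no test was made of the list. Rpl27a was the strongest, followed by Rpl23 with 56.2 at 61 bp downstream (18 in replicate 1 and 33.9 in replicate 2) and Rps3 with 55.8 at 109 bp downstream (25.3 and 27.5). The count was 33 with either replicate alone. Splicing factor genes had 18 of 65 (27.7%), led by Hnrnpc, an RNA-binding protein, with 75.8 at 88 bp upstream (48.2 and 29.3), and by Snrpg, a core snRNP protein, with 71.5 at 100 bp downstream (23.3 and 46.7). RNA polymerase II and general factor genes had 14 of 52 (26.9%), and translation initiation genes 10 of 55 (18.2%), led by Eif3b at 67.7. Mediator genes had 7 of 30 (23.3%), with Med23 at 51.2. The starts of these lists of synthesis and RNA machinery were CpG-rich in 73.5% to 85.5%, and 14.7% of all genes with a CpG-rich one-direction start had a member.

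Chromatin genes were also present. Histone genes had 16 of 67 (23.9%), 9 of them H4 genes, led by Hist1h4c with 78.0 at 19 bp upstream (41.5 in replicate 1 and 36.7 in replicate 2) and Hist1h4i with 67.3 at 91 bp upstream (41 and 26.2). The gene copies are near-identical, so reads may be shared among them. Over the 40 histone genes whose start had no opposite coding start within 1 kb, the share was 40%. Coactivator genes had 7 of 28 (25%), among them Ep300 itself, which had 40.96 at 370 bp upstream, with 30.4 in replicate 2 and no replicate 1 summit inside. Kat7, a histone acetyltransferase, had 49.7 at 113 bp downstream (40.3 in replicate 1, none in replicate 2), and Cited2, a partner of EP300, 45.9 at 759 bp upstream (25.5 and 20.6). The zinc finger genes named Zfp, Zbtb, Zkscan or Zscan had 62 of 465 (13.3%), with Zfp414, Zfp566 and Zfp317 the strongest.

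**Figure D5:**
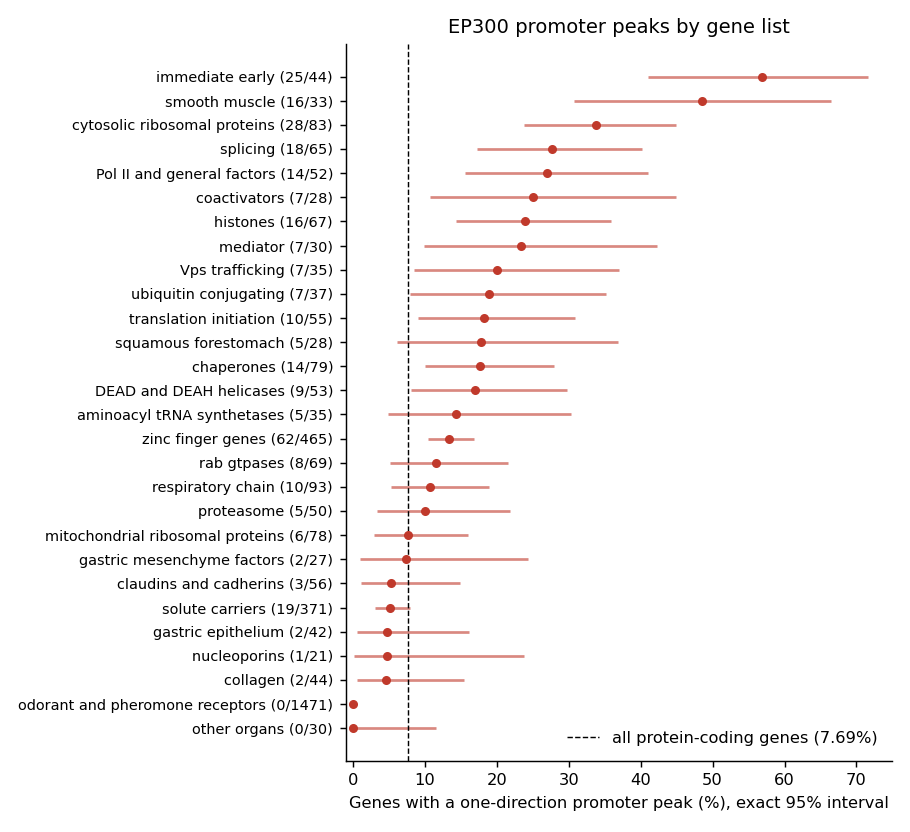
Share of the genes of each list with a one-direction promoter peak (%, points) with exact 95% intervals (lines), for 28 lists, beside the 7.69% of all protein-coding genes (dashed). Immediate early and smooth muscle genes have the highest shares, 56.8% and 48.5%, and the lists of receptors and of other organs are at 0. The shares are over all genes of a list, including those whose start has an opposite coding start within 1 kb.

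Other lists of general cell functions lay between. Genes named Vps, most of them of endosomal sorting, had 7 of 35 (20%), led by Vps4b at 73.4, and ubiquitin-conjugating enzyme genes 7 of 37 (18.9%), with 8 of 9 summits upstream and Ube2f at 57.9 (14.2 in replicate 1 and 43.9 in replicate 2). Chaperone genes had 14 of 79 (17.7%), DEAD and DEAH helicase genes 9 of 53 (17.0%), with Ddx17, Dhx8 and Ddx39b the strongest, and aminoacyl-tRNA synthetase genes 5 of 35 (14.3%). Counted over whole lists, shares nearer to the 7.69% of all genes were those of Rab genes (8 of 69, 11.6%), respiratory chain genes (10 of 93, 10.8%), proteasome genes (5 of 50, 10%) and mitochondrial ribosomal protein genes (6 of 78, 7.69%). These shares moved with the library: with replicate 1 alone, against 9.59% of all genes, they were 17.4% for Rab genes, 17.2% for the respiratory chain, 20% for the proteasome, 14.1% for mitochondrial ribosomal proteins and 8.57% for aminoacyl-tRNA synthetases. With replicate 2 alone, against 8.38% of all genes, mitochondrial ribosomal proteins were at 12.8%. Cytosolic ribosomal proteins were at 39.8% with either replicate alone. Over genes whose start had no opposite coding start, the background in the optimal set was 8.41%. The respiratory chain was then at 15.3%, mitochondrial ribosomal proteins at 13.0%, the proteasome at 12.5% and Rab genes at 11.9%. The starts of the cytosolic and mitochondrial ribosomal genes were CpG-rich in 73.5% and 76.9%. In the other lists of general cell functions the starts were CpG-rich in 71.0% to 82.9%. Of all genes with a CpG-rich one-direction start, 14.7% had a member.

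The tissue label was checked with marker lists. Smooth muscle genes had the 48.5% given above, beside 7.69% of all genes. Several of those with a member, among them Itgb1, Myl6, Vcl, Actn1, Tpm4 and Srf, are also used in many other cell types. In the stronger part of the members the list had 6 of 33 (18.2%), beside 4.80% of all genes. Of 42 genes of the gastric epithelium, 2 had a member (4.76%), Grhl2 and Klf5, both epithelial transcription factors, with 49.99 at 235 bp downstream (26.4 in replicate 1 and 19.4 in replicate 2) and 48.7 at 243 bp upstream (17.9 and 29.6). Genes of the stratified epithelium that lines the mouse forestomach had 5 of 28 (17.9%, 6.06 to 36.9): Evpl, Perp, Dsc2, Pkp3 and Trp63, of which Evpl, a cornified envelope protein, was the strongest at 44.2 (17.6 and 27.3). Factors of the gastric mesenchyme had 2 of 27 (7.41%), Meis1 at 34.6 and Tbx3 at 24.4, and collagens 2 of 44 (4.55%), Col16a1 and Col5a1. The mesenchyme count was 6 (22.2%) with replicate 1 alone, 3 with replicate 2 alone and 4 among conservative peaks. The forestomach count was 8 (28.6%) with replicate 2 alone and 6 with replicate 1 alone. Claudin and cadherin genes had 3 of 56 (5.36%), led by Cldn4 at 49.9, solute carriers 19 of 371 (5.12%), and nucleoporins 1 of 21 (4.76%), Nup205. With replicate 1 alone, collagens had 1 and nucleoporins 2. Markers of other organs (liver, heart, skeletal muscle, brain, pancreas, kidney and intestine) had 0 of 30, which allows up to 11.6%, and odorant and pheromone receptors 0 of 1471, which allows up to 0.250%. Gastric epithelial products such as Muc5ac, Gkn1 or Atp4a had no member, and the marker list with the highest share was that of smooth muscle.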

How the data were processed

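EP300 binding was measured in 2 libraries of newborn mouse stomach. The labels number them as biological replicates but give both the same biosample and donor, so spread between them may be technical. The authors deposited 5 peak lists on mm10 (both IDR sets, optimal and conservative, the pooled reads, and each replicate). The deposited unit of strength is a signal value that is not normalized between lists. The authors' lists also carry a score, and summits as an offset from the peak start, in bp. Which caller and aligner made them is not given in the sources used here. Read counts were not used here, so the depth is unknown. Intervals are exact Clopper-Pearson 95% intervals over peaks or genes and cover counting error only.

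Positions are 1-based on mm10. Genes came from GENCODE release M21 (21888 protein-coding genes on named chromosomes), and 4 optimal peaks off those chromosomes were left out. The members, motifs and gene lists were chosen with earlier results of these data known. Python 3.11.15 with numpy 2.4.6, pandas 2.3.3, scipy 1.17.1 and matplotlib 3.10.9 was used. Odds ratios had 0.5 added to each cell. Sides were tested with an exact binomial test, paired windows with an exact McNemar test and classes of peaks with Fisher's exact test, all two-sided, and p-values were adjusted by the Benjamini-Hochberg method over the 36 motifs or over the tests of a family. The scripts were tested on simulated data. Flanks lay on alternating sides of the summit by list order.

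Motifs not spelled out in the results were ZNF143 (ACTACAA), KLF on CACCC boxes (CCACACCC), CEBP (TTGCGCAA or TTGCACAA or TTGCATAA), MEF2 (CTAAAAATA or CTATTTATA), SOX (ACAATGG or ACAAAGG), HNF4 (CAAAGTCCA), the NFI site (TTGGCA), STAT factors (TTCNNNGAA), NF-κB (GGAATTTCC or GGACTTTCC) and HSF (TTCTAGAA). The CTCF and SRF CArG patterns hold ambiguous letters and are named only. Named genes are those of the 8 strongest upstream and 8 strongest downstream members, the 6 strongest that were not CpG-rich, the 5 genes with most summits and up to 3 genes of each list with the strongest member, and the sequences are those of the strongest suitable member for 8 motifs. Of the strongest members, 1 upstream and 1 downstream are not reported here. The 4 further ZBTB33 sequences, the Actg2 and Tagln sites, and other genes of the lists were named after their values were seen. Of the symbols listed, Cyr61, Ctgf, Mkl1, Mkl2, Cblif and Loricrin were not in the annotation, and Ccn1 and Ccn2 are the current names of the first 2. Alternatives changed the peak set, the replicate, the distance, the starts, the motif window and the CpG definition.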

Additional observations from a re-analysis of the deposited data

How the results depend on the processing

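The share of upstream summits was 58.4% with principal starts and 66.8% where both replicates' summits lay on the same side, its extremes over 14 alternatives, and 59.8% to 64.8% without 1 replicate. All 3 comparisons of CpG-rich shares kept their direction and passed in all 12 alternatives each. Counts of motifs moved more. Among the stronger part of each class, 9 motifs were more frequent than in flanks, 0 differed between upstream and downstream members, and 8 between CpG-rich and other members, with 1155 peaks and 1050 genes, by construction. A motif window of 50 bp each side gave 9 motifs against flanks and 11 between CpG-rich and other members. A window of 150 bp gave 26 between CpG-rich and other members, 2 against bidirectional summits and 5 between upstream and downstream. Between upstream and downstream, 2 motifs differed within 500 bp of starts, 3 with non-coding starts in the strand rule and 0 with 1 peak per run of overlapping peaks. Without peaks that overlap one of the 300 strongest, an alternative chosen after seeing the data, 1 motif differed from bidirectional summits. Without 1 replicate, 1 to 2 motifs differed from bidirectional summits, 1 to 3 between upstream and downstream, 11 to 16 from flanks and 22 to 24 between CpG-rich and other members; members numbered 2132 to 2456 and genes 1834 to 2099. Apart from the smaller windows and peak sets, the cause of these moves was not tested. ETS, KLF and SP, NF-Y, E2F, MAZ, both E-boxes and ZBTB33 passed against flanks in all 13 alternatives. No paired analysis was possible because the study has 1 group. Peaks are not replicates, overlapping peaks share sequence, and the depth behind them is unknown.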

Other observations

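Set against the mirror image of the summit on the other side of its start, 5 of the 36 motifs were more frequent at member summits over 100 bp from the start and none was less frequent (two-sided exact McNemar test, Benjamini-Hochberg adjusted p under 0.05, 1538 members). They were NF-Y (6.37% against 4.03%, exact test, adjusted p = 0.0315), the NFI site TTGGCA (9.36% against 6.18%), FOX (3.19% against 1.43%), CEBP (1.89% against 0.650%) and GRHL (1.3% against 0.325%). ETS was at 7.41% of these summits and 6.05% of their mirror windows (exact test, adjusted p = 0.430), and KLF and SP at 9.69% and 10.7% (adjusted p = 0.783). The pooled values mix both sides of the start, and 1024 of the 1538 summits were upstream. NF-Y was in 7.71% of upstream summits and 2.44% of their downstream mirrors, but in 3.70% of downstream summits and 7.20% of their upstream mirrors, the opposite direction. The other 4 had a lead at upstream summits: NFI 9.47% against 4.79%, FOX 3.42% against 0.879%, CEBP 2.15% against 0.293% and GRHL 1.66% against 0.293%. At downstream summits the shares were close: NFI 9.14% against 8.95%, FOX 2.72% against 2.53%, CEBP 1.36% against 1.36% and GRHL 0.584% against 0.389%. The sides were not tested separately. Both windows lie at the same distance from the start but differ in base composition. Upstream summits were CpG-rich in 41.9% and their mirrors in 65.7%, and downstream summits in 64.4% and their mirrors in 33.5%. The part of base composition in these motif counts was not tested, and the comparison was chosen after seeing the data.

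At other starts, those that are not CpG-rich, 5 motifs were more frequent at the 441 nearest to a member than at the 10701 of genes without a promoter peak: KLF and SP, E2F, YY1, ETS and ZBTB33. YY1 was at 3.17% against 1.18% (log2 odds ratio 1.5, two-sided Fisher's exact test, adjusted p = 0.0116), and ETS at 8.84% against 3.20% (1.57, adjusted p = 1.64e-06). Of the members, 35 lay on the X chromosome and 0 on the Y. The share of all peaks or genes on these chromosomes was not counted, so the counts show neither excess nor lack.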
